A study of Mus musculus with 13 samples.

Results

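Immediate early genes of the AP-1 and EGR families were examined in mouse melanoma cells sorted from lung metastases. The set held 10 genes chosen by name: Fos, Fosb, Fosl1 and Fosl2 (the Fos family), Jun, Junb and Jund (the Jun family), and Atf3, Egr1 and Ier2. They were 10 of the 22656 genes in the deposited table, and 9 of them were among the 12403 genes whose average over the 13 libraries reached 10 normalised counts. Fosl1 was the member below that level. In every mouse the tumour cells were B16F10-TR-shApoe, a B16F10 melanoma derivative whose name records a short hairpin against the tumour's own Apoe. A dose of 100000 such cells entered each mouse through the tail vein. The hosts were knock-in mice carrying the human APOE2 allele (8 libraries) or the human APOE3 allele (5 libraries), and no host without a knock-in allele is among them. Age and sex are not given in the sources used here. On day 15 the lungs were digested with collagenase, and cells low for the dead-cell dye TO-PRO-3, negative for CD45 and positive for GFP were sorted. RNA was read from the 3′ end of polyadenylated transcripts (QuantSeq FWD kit). Every library passed through digestion and sorting, so the level of these genes in the tumour before digestion and any induction during handling cannot be told apart here.

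Immediate early genes are transcribed within minutes of a stimulus, from transcription factors that are already in the cell, and need no new protein. Growth factor signalling through ERK and the ternary complex of SRF with ELK factors drives Fos and Egr1. Stress signalling through JNK and p38 drives Jun and Atf3, and enzymatic dissociation of a tissue is a known trigger of the whole programme. Fos proteins cannot pair with themselves and bind DNA as dimers with a Jun protein, and such a dimer is the factor called AP-1. Jun proteins can also pair with each other or with ATF proteins. EGR1 is a zinc finger factor that binds GC-rich sites and is itself a target of the same signals.

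The promoters of 4 members are shown. Fos has the best studied of them, Fosb was the member with the lowest p between hosts, and Jun and Atf3 are partners whose levels are compared below. The sequences are from the RefSeq table on GRCm38.p6, which held 7 of the 10 members. Egr1, Ier2 and Fosl1 were not in it, so their promoters were not searched. Each is the 150 bases before the annotated transcription start, read 5′ to 3′ on the strand of the gene. The windows are chr12:85473740-85473889 on the plus strand for Fos, chr7:19310046-19310195 on the minus strand for Fosb, chr4:95052223-95052372 on the minus strand for Jun, and chr1:191183334-191183483 on the minus strand for Atf3. The Atf3 start in RefSeq lies inside the longer GENCODE gene.
Fos: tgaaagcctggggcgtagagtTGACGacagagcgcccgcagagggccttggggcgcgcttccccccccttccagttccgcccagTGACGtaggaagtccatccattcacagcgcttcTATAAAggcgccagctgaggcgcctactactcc
Fosb: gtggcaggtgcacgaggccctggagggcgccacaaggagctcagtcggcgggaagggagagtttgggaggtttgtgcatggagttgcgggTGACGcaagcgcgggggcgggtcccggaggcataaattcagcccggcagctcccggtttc
Jun: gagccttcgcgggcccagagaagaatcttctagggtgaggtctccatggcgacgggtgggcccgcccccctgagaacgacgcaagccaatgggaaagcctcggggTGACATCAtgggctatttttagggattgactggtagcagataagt
Atf3: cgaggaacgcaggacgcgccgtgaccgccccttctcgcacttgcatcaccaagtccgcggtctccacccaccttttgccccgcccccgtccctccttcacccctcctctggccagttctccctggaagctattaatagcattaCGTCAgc
Capitals mark the letters TGACG on either strand, the core of a cyclic AMP response element site, the TATA box TATAAA, and in Jun the letters TGACATCA, a variant of the AP-1 site known from the Jun promoter. In Fos these sites begin 129 and 66 bases before the start and the TATA box 33 bases before it. In Fosb the site begins 60 bases before the start. The EGR site GCGNGGGCG, not in capitals, begins 50 bases before the start of Fosb and, in a window not printed, 79 bases before that of Fosl2, and 5.55% of the promoters held it. In Atf3 the TGACG site lies on the opposite strand and begins 7 bases before the start. The Jun variant begins 45 bases before the start. Among 32851 promoters of 300 bases in the same table, 20.8% held TGACG on either strand, 13.6% held TATAAA and 3.62% held TGACATCA. Junb held TGACG 106 bases before its start, in a window not printed. None of the 7 members held the full cyclic AMP response element TGACGTCA, the AP-1 site TGANTCA, the ETS core CCGGAA or the CArG box. Those were held by 1.79%, 7.81%, 14.9% and 1.63% of the 32851 promoters. Only 250 bases before the start and 50 after it were searched. For Jund the RefSeq start lies upstream of the GENCODE gene. The bases before that RefSeq start end at chr8:70697738, and the GENCODE gene begins at 70698949. The sequence next to the GENCODE start of Jund was therefore not searched. A match describes the letters only, and the libraries carry no measurement of binding at these sites.

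Recovered reads ranged from 7080308 to 13039989 per library, and between 14026 and 17018 genes had reads. Melanocyte markers were abundant in every library. Dct, an enzyme of pigment synthesis, ranged from 101484 to 323071 normalised counts, and Pmel, which builds the melanosome fibre, from 43422 to 70028. Mlana, Tyr, Tyrp1, Mitf and Sox10 had reads in all 13 libraries as well. Apoe, the gene the hairpin targets, ranged from 1217 to 2101 normalised counts in APOE2 hosts and from 1193 to 2369 in APOE3 hosts. With no library lacking the hairpin, those levels do not check it. Ptprc, which encodes the CD45 used to gate leukocytes out, was at 1.01 to 16.4 normalised counts in APOE2 hosts and 4.21 to 38.5 in APOE3 hosts.

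None of the 9 members that could be tested differed between hosts at an adjusted p under 0.05 in limma, where 0.79% of all genes tested did (98 of 12403). At an unadjusted limma p under 0.05, Fosb and Fosl2 were lower in APOE2 hosts, which is 2 of the 9 members, beside 6.71% of all genes lower at that level. No member was higher at that level. All 9 had a lower mean log2 value in APOE2 hosts, with a median difference of -0.26, whereas 49.9% of all genes were lower and their median difference was 0.00037. The 9 of 9 held with equal library totals, with TMM scaling and with edgeR and DESeq2. It became 8 of 9 without APOE3 replicate 4, and 5, 3 and 5 of 9 with the lung epithelium, leukocyte and endothelium markers as covariates. The 9 genes share the same libraries and are not separate observations. DESeq2 on the recovered reads called 2 members, Fosb and Fosl2, where it called 1.27% of all genes lower in APOE2. The edgeR quasi-likelihood test called none of the 9, where it called 1.11% of all genes, and 2 had an unadjusted p under 0.05, as did 13.2% of all genes. The count of 98 rested on single libraries: it was 49 without APOE2 replicate 1, 28 without APOE2 replicate 2, 43 without APOE2 replicate 5, 50 without APOE2 replicate 7 and 57 without APOE2 replicate 8. It was 228 without APOE3 replicate 1, 9 without APOE3 replicate 3 and 30 without APOE3 replicate 4.

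**Figure D1:**
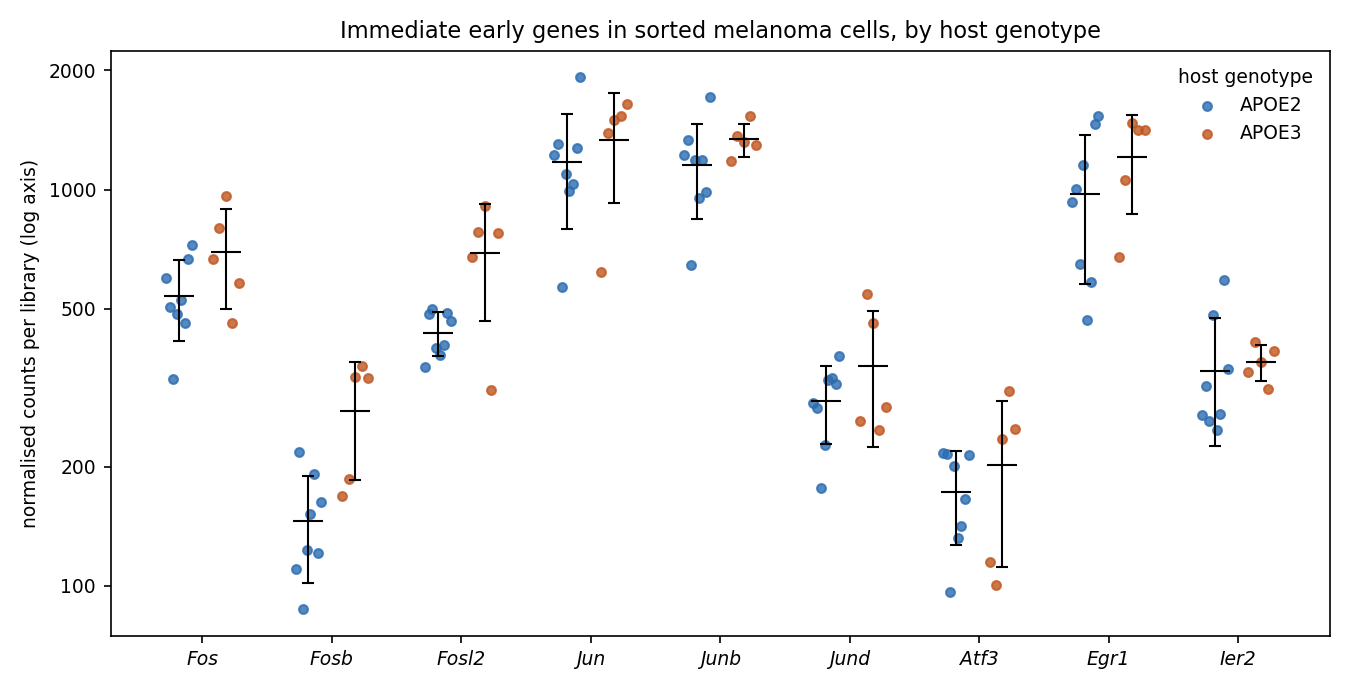
Normalised counts (log axis) of the 9 members past the filter in each library, with APOE2 hosts in blue (n = 8) and APOE3 hosts in orange (n = 5). The long bars are means and the whiskers 1 SD. Every gene overlaps between hosts, and Fosl2 has 4 APOE3 libraries above all 8 APOE2 libraries and 1 below them.

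Fosb, a Fos family member whose protein and its truncated form accumulate after repeated stimulation, lies at chr7:19302696-19310051 on the minus strand with 4 exons. Its level in APOE2 hosts ran from 87.3 to 218 normalised counts with a median of 137. In the 5 APOE3 libraries it was 169, 186, 336, 358 and 334. All 8 APOE2 libraries were below the APOE3 mean, and 3 APOE3 libraries were above the highest APOE2 library, while APOE3 replicates 1 and 2 lay within the APOE2 range. The means were 146 ± 43.9 (SD, n = 8) and 277 ± 91.2 (SD, n = 5). The log2 difference, APOE2 minus APOE3, was -0.90 with a standard error of 0.24 and a 95% interval of -1.41 to -0.40 (limma, unadjusted p = 0.00105, adjusted p = 0.0795). DESeq2 gave -0.93 with an adjusted p of 0.0155, and edgeR an adjusted p of 0.0507. Without APOE3 replicate 1 the difference was -1.07 and limma's adjusted p was 0.0272.

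Fosl2, which encodes the Fos-related antigen Fra-2 and is expressed later and longer than Fos, lies at chr5:32135801-32157842 on the plus strand with 4 exons. Its level in APOE2 hosts was narrow, from 356 to 498 normalised counts with a median of 435. The 5 APOE3 libraries had 677, 783, 906, 313 and 779. Replicates 1, 2, 3 and 5 of the APOE3 hosts were above every APOE2 library, and replicate 4 was below every one of them. The means were 434 ± 55.3 (SD, n = 8) and 692 ± 227 (SD, n = 5), and the log2 difference was -0.59 with a standard error of 0.19 and a 95% interval of -0.99 to -0.20 (limma, unadjusted p = 0.00458, adjusted p = 0.147). DESeq2 gave -0.67 with an adjusted p of 0.0263, and edgeR an adjusted p of 0.0739. Without APOE3 replicate 4 the difference was -0.86 and limma's adjusted p was 0.0139.

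Fos, the founding partner of Jun in AP-1, lies at chr12:85473890-85477273 on the plus strand with 4 exons. It ran from 333 to 727 normalised counts in APOE2 hosts, with a median of 516. In APOE3 hosts it was 669, 801, 966, 459 and 579.6. APOE3 replicates 2 and 3 were above the highest APOE2 library, and the rest of the groups overlapped. The log2 difference was -0.36 with a 95% interval of -0.73 to 0.015 (limma, adjusted p = 0.374), and it was -0.23 without APOE3 replicate 3. Fosl1, which encodes Fra-1 and is switched on in many invasive tumours, had 9 reads in APOE2 replicate 6 and no read in the other 12 libraries. An exact two-sided permutation test of its difference gave p = 1. With reads in 1 library alone, that test could not give a low p. Fosl1 lies at chr19:5447547-5455946 on the plus strand, with 4 exons, and shares exon sequence with Ccdc85b on the opposite strand.

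The Jun family genes each have 1 exon. Jun, the main activator among them, lies at chr4:95049034-95052222 on the minus strand and overlaps the antisense gene Junos. It ran from 569 to 1920.1 normalised counts in APOE2 hosts with a median of 1160 and was 618, 1391, 1502, 1533 and 1643 in APOE3 hosts. APOE3 replicate 1 was low beside the other 4 APOE3 libraries, and APOE2 replicate 3 was the lowest of all 13. The log2 difference was -0.18 with a 95% interval of -0.64 to 0.29 (limma, adjusted p = 0.768). It was -0.43 without APOE3 replicate 1 and -0.29 without APOE2 replicate 8, and nearer 0 without APOE2 replicate 3 (-0.037) or APOE3 replicates 3 (-0.11), 4 (-0.11) or 5 (-0.082). Junb, which restrains Jun and is itself an AP-1 subunit, lies at chr8:84974484-84978718 on the minus strand and overlaps Prdx2 on the opposite strand. It ran from 645 to 1714 with a median of 1185 in APOE2 hosts and was 1182, 1366, 1318, 1529.7 and 1297 in APOE3 hosts. All 5 APOE3 libraries lay within the APOE2 range. The log2 difference of Junb was -0.26 with a 95% interval of -0.59 to 0.073 (limma, adjusted p = 0.481), and it was -0.15 without APOE2 replicate 3. Jund, the steadily expressed family member, lies at chr8:70698949-70700616 on the plus strand and overlaps Gm11175, an antisense gene. It ran from 177 to 379.8 normalised counts with a median of 306 in APOE2 hosts and was 261, 546, 461, 247 and 283 in APOE3 hosts. APOE3 replicates 2 and 3 exceeded every APOE2 library, and the other 3 lay within the APOE2 range. The log2 difference of Jund was -0.25 with a 95% interval of -0.69 to 0.18 (limma, adjusted p = 0.621). It was -0.084 without APOE3 replicate 2, -0.14 without APOE3 replicate 3 and -0.15 without APOE2 replicate 3. The strand setting of the counting is not given in the sources used here, so reads of a gene and its partner on the opposite strand may be mixed.

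Atf3, a stress-induced factor that pairs with Jun, ran from 96.5 to 217 normalised counts in APOE2 hosts with a median of 183. The APOE3 libraries had 115, 101, 235, 309.7 and 249. Replicates 3, 4 and 5 of the APOE3 hosts were above every APOE2 library and replicates 1 and 2 were near the lowest APOE2 library. The log2 difference was -0.14 with a 95% interval of -0.69 to 0.41 (limma, adjusted p = 0.860). It was 0.048 without APOE3 replicate 4, -0.31 and -0.36 without APOE3 replicates 1 and 2, -0.051 and -0.031 without APOE3 replicates 3 and 5, and -0.028 and -0.092 without APOE2 replicates 3 and 5. Egr1, the zinc finger factor, ran from 469 to 1531 with a median of 966 in APOE2 hosts and was 676, 1056, 1470.5, 1417 and 1413 in APOE3 hosts. All 5 APOE3 values lay within the APOE2 range. The log2 difference of Egr1 was -0.37 with a 95% interval of -0.87 to 0.13 (limma, adjusted p = 0.513). It was -0.56 without APOE3 replicate 1 and -0.23 without APOE2 replicate 5. Ier2, an immediate early nuclear protein, ran from 247 to 591 with a median of 296 in APOE2 hosts and was 347, 412, 367, 314 and 392 in APOE3 hosts. Its APOE3 libraries were close together, inside a wider APOE2 range. The log2 difference of Ier2 was -0.13 with a 95% interval of -0.53 to 0.27 (limma, adjusted p = 0.804). It was -0.25 and -0.21 without APOE2 replicates 7 and 4, and -0.080, -0.070 and -0.087 without APOE2 replicates 3 and 5 and APOE3 replicate 2.

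**Figure D2:**
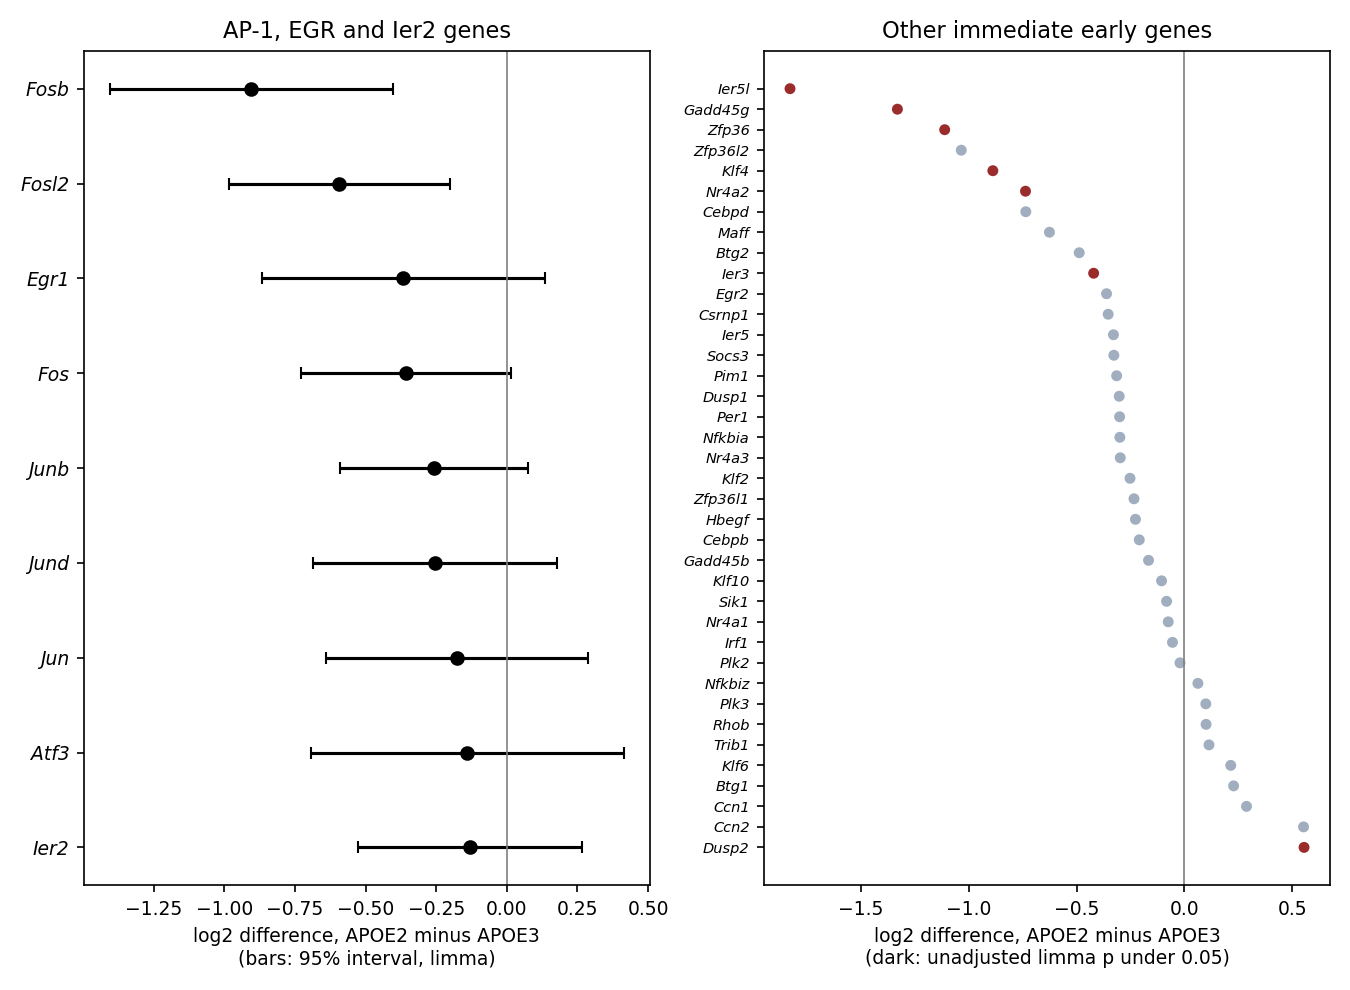
Left, log2 difference (APOE2 minus APOE3) of each member with its 95% interval from limma. Right, the same difference for 38 other immediate early genes, with dark points at an unadjusted limma p under 0.05. The intervals of Fosb (-1.41 to -0.40) and Fosl2 (-0.99 to -0.20) lie below 0, and 29 of the 38 other genes are left of the line.

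The wider immediate early programme was set beside the members. Of 41 other genes of that kind, 38 were tested, none passed the adjusted threshold in limma, 29 were lower in APOE2 hosts and 9 higher, and their median log2 difference was -0.27. At an unadjusted limma p under 0.05, 6 were lower and 1 higher, beside 832 lower and 931 higher of all 12403 genes tested. The edgeR test called Gadd45g and Zfp36 lower, and DESeq2 called both of them lower and Dusp2 higher. Gadd45g, a growth arrest gene, had means of 51.1 ± 21.5 (SD, n = 8) and 128 ± 40.6 (SD, n = 5) normalised counts and a log2 difference of -1.33 (limma, adjusted p = 0.0520). DESeq2 gave it an adjusted p of 0.00607 and edgeR one of 0.0368, and limma's was 0.0435 without APOE2 replicate 8 and 0.0182 without APOE3 replicate 1. With all 13 libraries limma's adjusted p for Gadd45g was 0.0372 with pseudocount 5, 0.0458 with a minimum mean of 50 and 0.0462 with equal library totals. Klf4, a Krüppel-like factor, had 154 ± 57.4 (SD, n = 8) and 275 ± 75.5 (SD, n = 5) normalised counts and a difference of -0.89 (limma, adjusted p = 0.105). Dusp2, a phosphatase that switches off ERK, had the opposite sign, with 791 ± 182 (SD, n = 8) in APOE2 hosts, 534 ± 112 (SD, n = 5) in APOE3 hosts and a difference of 0.56 (limma, adjusted p = 0.108). DESeq2 gave Dusp2 an adjusted p of 0.0423.

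Of 21 factors that can pair with AP-1 proteins or share their sites, none passed the adjusted threshold in limma, edgeR or DESeq2. In limma 5 had an unadjusted p under 0.05 (2 higher, 3 lower). Of all 12403 genes tested, 931 were higher and 832 lower at that level. The median log2 difference of the 21 was 0.026. The 3 with the smallest p were Maf at 0.44 (limma, adjusted p = 0.161; 0.29 without APOE3 replicate 4), Atf6 at 0.37 (adjusted p = 0.239) and Mafk at -0.52 (adjusted p = 0.256). Among 23 upstream kinases and transcription factors of the ERK, JNK and p38 routes, none passed in limma, edgeR or DESeq2, 1 was higher and 1 lower at an unadjusted limma p under 0.05, and the median was 0.038. Map2k1, the kinase MEK1 that activates ERK, had a log2 difference of 0.55 (limma, adjusted p = 0.163), which was 0.70 with an adjusted p of 0.0453 without APOE3 replicate 1 and 0.28 with an adjusted p of 0.309 without APOE3 replicate 2. Map2k7, a JNK kinase, had -0.29 (adjusted p = 0.296). Rps6ka5, the kinase MSK1, had 1.67 on means of 16.2 normalised counts in APOE2 hosts and 6.34 in APOE3 hosts (adjusted p = 0.403). Rps6ka5 passed the filter only through its APOE2 level, so its direction was set by the filter. Heat shock genes are known to be induced beside immediate early genes in tissue dissociation. Of 12 tested, none passed in limma or edgeR, and DESeq2 called 1 (Hspe1). At an unadjusted limma p under 0.05, 2 were higher and 0 lower, and the median of the 12 was 0.041. By sign 7 were higher and 5 lower, with log2 differences from -0.90 to 0.51. The 3 with the smallest p, all higher, follow. Hspe1, the small chaperonin, had 9342 ± 1246 (SD, n = 8) and 6668 ± 1639 (SD, n = 5) normalised counts and a log2 difference of 0.51 (limma, adjusted p = 0.0721), and Hspd1, its large partner, had 0.31 (adjusted p = 0.168). Hsph1 had 0.50 (adjusted p = 0.369), which was 0.25 without APOE3 replicate 1 and 0.81 without APOE3 replicate 5. DESeq2 gave Hspe1 an adjusted p of 0.0215, and limma gave it 0.0224 without APOE3 replicate 1 and 0.0481 without APOE3 replicate 5.

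Genes of other lung cells moved with the host genotype in the same libraries. Of 46 tested markers of lung epithelium, endothelium, fibroblasts, leukocytes and erythroid cells, 12 passed limma's adjusted threshold, and in APOE2 hosts each of the 12 was lower. That count was 8 without APOE2 replicate 2, 3 without APOE3 replicate 3, 4 without APOE3 replicate 4, and 7 without APOE3 replicate 5, and it was 18 without APOE3 replicate 1. With all 13 libraries it was 6 with robust limma, 1 with no filter on low values, 0 without the trend (27 at an unadjusted p under 0.05) and 21 with DESeq2. The 15 lung epithelium markers summed to 822 to 4192 normalised counts in APOE2 hosts and 3591 to 21483 in APOE3 hosts, and 11 of 12 tested were lower. The 14 endothelium markers summed to 803 to 1249 and 1103 to 2467, all 14 lower. Of these, 3 averaged under 10 normalised counts in APOE2 hosts and 0 in APOE3 hosts. Those 3 passed the filter only through their APOE3 level, so their direction was set by the filter. The 13 fibroblast and smooth muscle markers summed to 214 to 670.4 and 452 to 2789, all 8 tested lower. The leukocyte markers, 21 of 22 in the table, summed to 549 to 2610.4 and 2209 to 13047, 8 of 9 tested lower. In that list Lyz2 alone had medians of 1027 (APOE2) and 4205 (APOE3), beside 1449 and 4993 for the sum. The sum thus mostly reflects 1 gene. Ptprc had medians of 6.24 and 9.26, in cells sorted as negative for CD45. The leukocyte list and the covariate made from it are therefore not read as a measure of leukocytes. Medians of S100a8 (120 and 90.5) and S100a9 (59.2 and 28.2) were higher in APOE2 hosts. The 5 erythroid markers in the table summed to 40.6 to 189 and 23.2 to 219.8. All 3 tested had a higher mean log2 value in APOE2 hosts, with 0 at an unadjusted limma p under 0.05. Mean counts were lower in APOE2 hosts for Hba-a1 (13.8 against 15.5) and Hbb-bs (59.2 against 61.0). They were higher for Hbb-bt (12.5 against 9.11), so no direction is read from this list. Cd4 and Cd8a were listed at 0 in all 8 APOE2 libraries and each had reads in 1 APOE3 library. Scgb3a2 was at 0 in all 5 APOE3 libraries and had reads in 3 APOE2 libraries. The median of each of these genes was 0 in both hosts, so no host difference is read from them. The 7 melanocyte markers summed to 295578 to 454459 in APOE2 hosts and 213130 to 327639 in APOE3 hosts. Dct alone had medians of 218146 (APOE2) and 149718 (APOE3), beside 337144 and 246878 for the sum. This sum too mostly reflects 1 gene. By sign 4 of the 7 markers were higher and 3 lower in APOE2 hosts. None of the 7 passed in limma, where 1 had an unadjusted p under 0.05, and Dct was called higher in APOE2 hosts by edgeR and by DESeq2. Fewer cells of a type and less RNA per cell cannot be told apart in such bulk libraries. The part of these markers in the members' differences was not tested. Covariate fits are given next, but they cannot measure it, because the lists used differed between hosts too.

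Members were also fitted with the mean log2 level of a marker list as a covariate, a level that itself differed between hosts as just given. This left 2 genes of all those tested past the threshold with the lung epithelium list and none with the leukocyte or endothelium list. The genes at an unadjusted limma p under 0.05 then numbered 882 with the leukocyte list and 728 with the endothelium list. Fosl2 had log2 differences of -0.78, -0.83 and -0.78 for the lung epithelium, leukocyte and endothelium lists. Fosb was -0.49, -0.85 and -0.0025. With those lists in the same order, Jun turned to 0.36, 0.40 and 1.00, Atf3 to 0.53, 0.50 and 0.90, Egr1 to 0.11, 0.33 and 0.52, and Junb to 0.037, 0.13 and 0.25. Fos at 0.017 and Ier2 at 0.21 turned with the leukocyte list alone.

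Some libraries were low or high in several members of the set. APOE2 replicate 3 was the lowest of its group in 6 of the 9 members, with a median of -0.68 log2 units from the group mean, yet it was the highest for Fosl2. APOE2 replicate 8 was the highest in 5, with a median of 0.41. In APOE3 hosts, replicate 1 was the lowest in 4 members and replicate 4 the lowest in 4 and the highest in 3. The same APOE2 replicate 3 had the lowest sums of lung epithelium, fibroblast and leukocyte markers of its group, at 822, 214 and 549 normalised counts. APOE3 replicate 1 had the lowest sums of its group for lung epithelium, endothelium, fibroblasts and leukocytes, and APOE3 replicate 4 the highest. The relations of the members with these lists are given below.

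**Figure D3:**
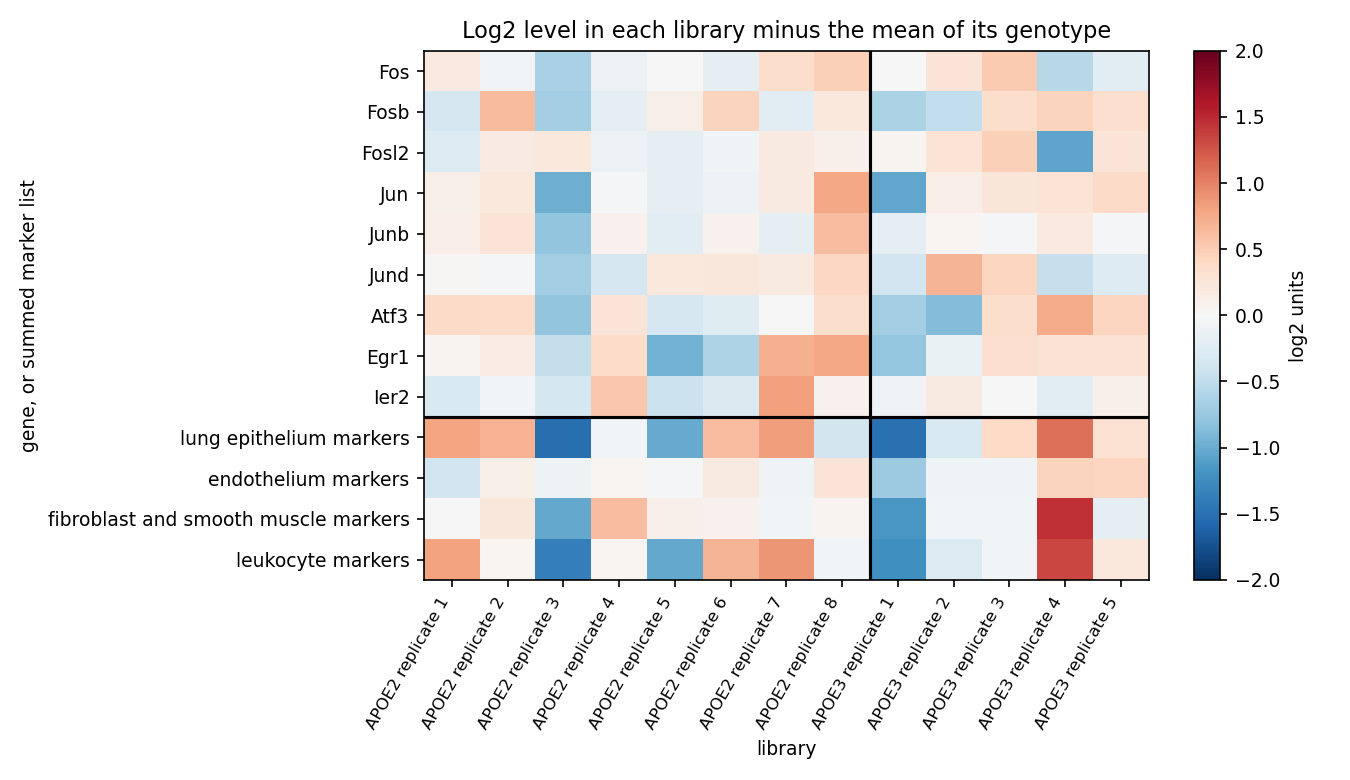
Log2 level of each member and of each summed marker list in each library, minus the mean of its genotype, on a colour scale from -2 to 2. APOE2 replicate 3 and APOE3 replicate 1 are blue in most rows. APOE3 replicate 4 is mixed, the lowest of its group in 4 members (Fos, Fosl2, Jund and Ier2) and the highest in 3.

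Members that vary together over the libraries were sought after each log2 value was centred on its genotype mean. Of 36 pairs, 30 correlated positively, 6 passed an adjusted permutation p of 0.05 by Pearson's r and none by Spearman's rho. At an unadjusted permutation p under 0.05 these were 10 and 7 pairs. Fos and Jund gave r = 0.82 (permutation, adjusted p = 0.0276) and rho = 0.77 (adjusted p = 0.0815), and r was 0.66 without the 2 libraries farthest from the median of Fos. Jun and Junb gave r = 0.78 (permutation, adjusted p = 0.0276) and rho = 0.60 (adjusted p = 0.149), and r was 0.70 without 2 libraries. Jun and Egr1 gave r = 0.75 (permutation, adjusted p = 0.0332) and rho = 0.75 (adjusted p = 0.0706), with 0.76 left. For Jun and Atf3 r was 0.72 (permutation, adjusted p = 0.0331), rho 0.73 (adjusted p = 0.0815), and r fell to 0.47 without 2 libraries. Dropping the 2 farthest libraries also narrows the range of Jun, so how far this r rests on them was not tested. Atf3 also went with Egr1 at r = 0.68 (permutation, adjusted p = 0.0377; rho = 0.53, adjusted p = 0.210; 0.75 left) and with Junb at r = 0.62 (permutation, adjusted p = 0.0276; rho = 0.63, adjusted p = 0.113; 0.53 left). Egr1 and Ier2 gave r = 0.66 (permutation, adjusted p = 0.109).

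The 6 relations leaned on single libraries. Without APOE2 replicate 8 none of the 36 pairs passed, and the count was 1 without APOE2 replicate 3, 1 without APOE3 replicate 1, 3 without APOE2 replicate 5 and 3 without APOE3 replicate 5. Over the 13 fits without 1 library each, r stayed between 0.74 and 0.87 for Fos and Jund, 0.63 and 0.90 for Jun and Junb, 0.67 and 0.82 for Jun and Egr1, and 0.62 and 0.90 for Jun and Atf3. It stayed between 0.61 and 0.76 for Atf3 and Egr1 and between 0.47 and 0.76 for Junb and Atf3. Atf3 with Egr1 passed in 4 of those 13 fits and Jun with Atf3 in 8. Fosb, Fosl2 and Ier2 had no partner past the threshold, and Fosl2 had a median r of -0.00055 to the other 8 members.

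**Figure D4:**
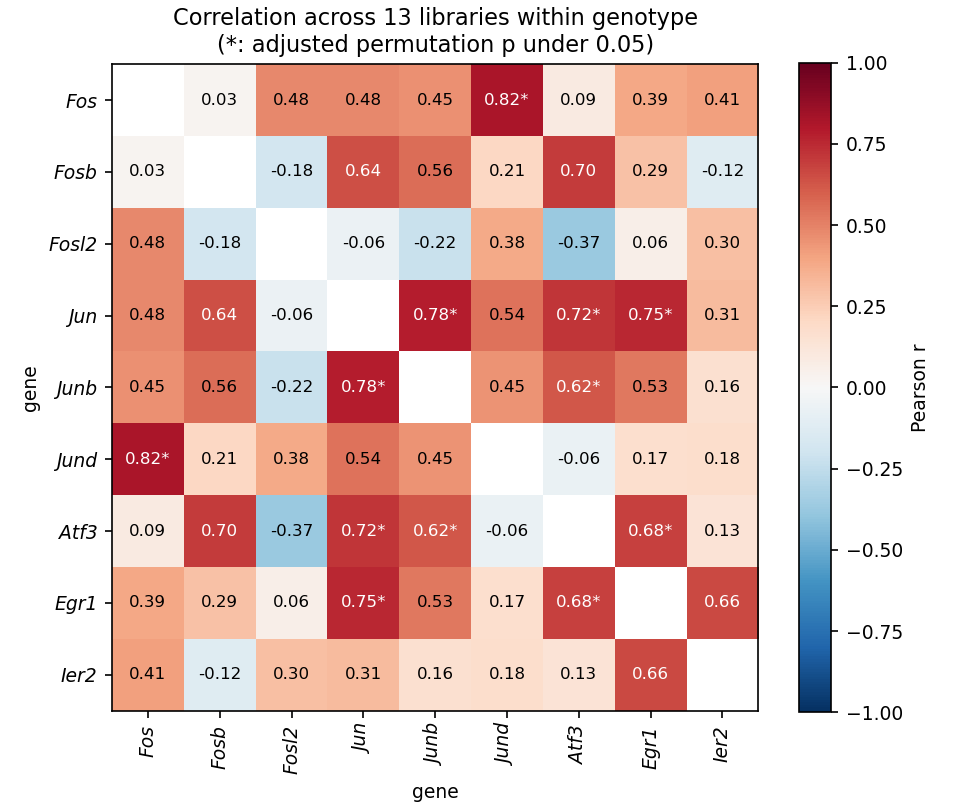
Pearson r between members over 13 libraries after centring on genotype means, on a colour scale from -1 to 1, with a star at an adjusted permutation p under 0.05. The 6 starred pairs are Fos with Jund, Jun with Junb, Atf3 and Egr1, Junb with Atf3, and Atf3 with Egr1, and the Fosb, Fosl2 and Ier2 rows hold no star.

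Members were set against the marker lists in the same way, a comparison added after the data were seen. Of 45 relations none passed an adjusted permutation p of 0.05 by either measure, and 14 by r and 8 by rho had an unadjusted p under 0.05. The highest was Jun with the endothelium list at r = 0.82 (permutation, adjusted p = 0.0612) and rho = 0.73 (adjusted p = 0.108), with 0.62 left without 2 libraries. Atf3 with the fibroblast and smooth muscle list gave r = 0.71 (permutation, adjusted p = 0.0669; rho = 0.60, adjusted p = 0.245; 0.67 left). Fosb with the endothelium list gave r = 0.71 (permutation, adjusted p = 0.0689; rho = 0.59, adjusted p = 0.269; 0.51 left). Atf3 with the lung epithelium list gave r = 0.70 (permutation, adjusted p = 0.0669; rho = 0.70, adjusted p = 0.108; 0.66 left). The most negative was Fosl2 with the fibroblast and smooth muscle list, at r = -0.62 (permutation, adjusted p = 0.1996; rho = -0.59, adjusted p = 0.245; -0.31 left).

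Egr1 and Jun varied more between libraries of a genotype than nearly all genes of like mean. The SD of log2 values within genotype was 0.58 for Egr1 and 0.53 for Jun, against 0.048 and 0.043 expected from read counting alone. Of 767 genes with a mean like that of Egr1, 99.3% had a smaller SD, and of 676 like that of Jun, 99.1%. Atf3 had an SD of 0.55 and 89.7% of like genes were below it, Fosl2 0.40 and 90.8%, Fos 0.37 and 87.7%, and Junb 0.34 and 87.7%. Jund had 0.42 and 85.0%, Fosb 0.47 and 79.2%, and Ier2 0.38 and 79.1%. All 9 members spread more than most genes of like mean, although among all genes of any level Junb ranked at the 42.1 percentile and Egr1 at the 70.4 percentile.

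The genes outside the set whose levels followed each member most closely over the 13 libraries, centred on genotype, were described by r with no test. For Jun they were Plcd3 at 0.92, Icam2 at 0.91, Atp11a at 0.89, Npr2 at 0.89 and Tek at 0.89. Tek, an endothelial receptor, is on the endothelium list and had 0 to 20.2 normalised counts in APOE2 hosts and 1.05 to 79.8 in APOE3 hosts. For Egr1 they were Sec14l4 at 0.92, Cyb5r4 at 0.84, Rassf8 at 0.84, Tbrg1 at 0.82 and 2310061I04Rik at 0.82. Fos went with Btaf1 at 0.89, Lrrfip1 at 0.86, Pcdhgc4 at 0.86, Myo10 at 0.86 and Arpc5 at 0.85, and Jund with Mrto4 at 0.93, Gm43289 at 0.92, Rpl13 at 0.90, Ywhah at 0.90 and Btaf1 at 0.88. The points share library depth and scaling, and 5 genes picked from 12403 by their r are high by selection.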

How the data were processed

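RNA was measured in 13 libraries, 8 from APOE2 and 5 from APOE3 knock-in hosts, and groups and replicate numbers come from the sample titles. The values are normalised counts, deposited as 1 table and treated as a signal with no value below 0. Per the submitters' processing notes, the tools were STAR 2.6.0, featureCounts and DESeq2 1.28.1 with the build mm10, the same assembly as GRCm38. The annotation release and strand setting are not given in the sources used here. Dividing each column by its smallest nonzero value gave whole reads (100% of nonzero values within 0.01), 7080308 to 13039989 per library. No molecular identifiers are used, so reads are not separate molecules and depth covers counting error only. GENCODE M21 gave symbols for 22649 of 22656 identifiers and the gene coordinates, and 7 had none.

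The test covered the 12403 genes averaging 10 normalised counts or more and used the trend option of limma 3.58.1 (R 4.3.3) on log2(value + 1), two-sided, with Benjamini-Hochberg adjustment over all of them and a threshold of 0.05. Fold changes are therefore on the log2(value + 1) scale and understate those of low genes. edgeR 4.0.16 and DESeq2 1.42.0 were run on the recovered reads as alternatives. Relations used 100000 permutations of libraries within genotype (Python 3.11.15, numpy 2.4.6), and Fosl1, below the filter, an exact permutation test. The fit and the permutation step were tested on simulated data. The first such test, on small changes alone, missed the recovery set for it and was replaced by one that also held larger changes, with the fit unaltered. Changes of the size of the largest member differences were recovered only in part there, so a member that did not pass is not shown to be unchanged. The series design counts 8 and 5 mice, and the labels do not tie each library to a mouse, so p-values measure the spread between these libraries.

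The members and all gene lists were chosen with earlier results of these data known. The named genes were the 10 members, of each other list every gene past the threshold or otherwise the 3 with the smallest p, the 5 genes closest to Fos, Jun, Egr1 and Jund, Apoe, and the melanocyte markers. Of those, the melanocyte and erythroid markers are given by level, by the count in each direction and by how many passed. The 12 markers of other cells past the threshold are given by their count and summed levels. That choice, the relations with marker lists, the comparison with genes of like mean and the TGACATCA motif were made after the data were seen. The other motifs searched on both strands were the full cyclic AMP response element TGACGTCA, the AP-1 site TGANTCA, the EGR site GCGNGGGCG, the ETS core CCGGAA and the CArG box. TGACG also matches inside TGACGTCA. Alternatives covered pseudocount, filter, scaling, test, replicate block, marker covariates, thinned reads and each library left out.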

Additional observations from a re-analysis of the deposited data

Results flagged for a closer look

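Among 18 screens, 1 for each of the 9 members in each genotype, 2 libraries stood apart from the rest of their group by Dixon's gap ratio, where chance gives 0.9 of 18. Fosl2 in APOE3 replicate 4 was at 312.5 normalised counts, against 677 to 906 in the other 4 APOE3 libraries, a gap of 0.726 of the group's log2 range. Jun in APOE3 replicate 1 was at 618 normalised counts, against 1391 to 1643 in the other 4, a gap of 0.830 of the range.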

How the results depend on the processing

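The count of genes past the threshold was 98 in all, 51 higher and 47 lower in APOE2 hosts. It was 9 (5 higher, 4 lower) with no filter on low values, 0 without limma's trend (1599 genes at an unadjusted p under 0.05) and 311 (153 and 158) with DESeq2. The lower genes numbered 73 with pseudocount 5 and 77 with edgeR. With the marker lists as covariates it was 2 (1 higher, 1 lower) for lung epithelium, 0 for leukocytes and 0 for endothelium (882 and 728 genes at an unadjusted p under 0.05). Leaving out 1 library in turn gave 9 to 228 genes, 5 to 131 of them higher and 4 to 97 lower. The cause of these changes was not tested, other than that the filter changes how many genes are adjusted for and the covariates take up 1 more term.

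Members past the threshold numbered 0 in every limma and edgeR setting with all 13 libraries, 2 with DESeq2, and 0 to 1 with 1 library left out. Signs turned under marker covariates for Jun (0.36, 0.40 and 1.00 for lung epithelium, leukocytes and endothelium), Atf3 (0.53, 0.50 and 0.90), Egr1 (0.11, 0.33 and 0.52) and Junb (0.037, 0.13 and 0.25), and with the leukocyte list for Fos (0.017) and Ier2 (0.21). Atf3 ranged from -0.36 to 0.048 with 1 library left out, turning without APOE3 replicate 4. The relations past the threshold numbered 6 with pseudocount 5 and with equal totals, and 0 to 8 with 1 library left out.

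No pairing by replicate number was seen. The correlation of deviations between same-numbered libraries lay between -0.063 and 0.014, and no library correlated best with its own number. Such correlations cannot exclude a pairing that left no trace of this kind, and the labels state none. With the replicate block 43 genes passed (17 higher, 26 lower), among them 7 of the 46 markers of other cells and no member, Fosb having -0.996 (limma, adjusted p = 0.167).

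Depth limits Fosl1, with 9 reads in all. Genes of the size of Fosb, at 95 to 380 reads per library, carry a counting SD of 0.11 log2 units.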
